A study of Diuraphis noxia with 6 samples.

Results

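The 200 most abundant genes of a *Diuraphis noxia* transcript assembly are described here in whole aphids of the biotypes RWA-SA1 and RWA-SAM. A gene stands for one gene identifier of the de novo assembly, and its level is the sum of the TPM values of its isoforms. TPM is a share of all transcripts in a library, corrected for transcript length and scaled to the same sum in every library. The members are the 200 identifiers, of 60140 in all, with the highest mean TPM over the 6 libraries. They were chosen by the TPM values of all 6 libraries, so their levels, ranks, shares and lengths are given as a description without a test. The 2 biotypes are related by descent and differ in virulence to resistant wheat, and both were kept on hosts they prefer. Each library was made from whole bodies of 100 pooled aphids of mixed developmental stages with a stranded mRNA kit, in 3 libraries per biotype. The labels name no treatment, and a pool gives the mean of its aphids but not the spread between them.

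Aphids feed on phloem sap and carry the bacterium *Buchnera* in specialised cells, and females that reproduce without mating hold developing embryos. RNA of a whole aphid thus mixes gut, muscle, cuticle, fat body, symbiont-bearing cells and embryos. In whole animals, genes for protein synthesis, energy supply, the cytoskeleton and muscle are usually among the most abundant messages. The deposited data pair the identifiers with no gene name, and no sequence or annotation was used here, so none of the members can be assigned to these classes and the cell types in the pools could not be checked by markers. The paper reports that assembled reads of these biotypes included *Buchnera* transcripts. Whether any member comes from the bacterium and not the aphid was not tested.

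The expected counts, which are read counts that RSEM estimates per transcript, summed to between 32294116 and 47619238 per library over 90781 transcripts. Values are given in the order of replicates 1, 2 and 3 throughout. The number of genes at a TPM of at least 1 was 19937, 15888 and 15713 for RWA-SA1, and 21446, 23642 and 21949 for RWA-SAM. RWA-SA1 replicate 1 departed from RWA-SA1 replicates 2 and 3, and the biotype tests of named genes whose call changes without it are given both ways. With any one of the other libraries left out, edgeR called no gene. Whether pools of a biotype were reared apart is not stated, so p-values here cover only the variation from pool to pool, which may be technical.

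The members made up 0.333% of the gene identifiers but a large share of the total TPM. They took 40.3%, 42.3% and 43.9% of the total TPM for RWA-SA1, and 39.5%, 39.4% and 37.8% for RWA-SAM. The mean share was 42.1% ± 1.83 (SD, n = 3) for RWA-SA1, against 38.9% ± 0.933 (SD, n = 3) for RWA-SAM. Every RWA-SA1 library lay above every RWA-SAM library, with RWA-SA1 replicate 1 the nearest to them. The difference was 3.25 percentage points, and 2.26 to 4.16 points when each library was left out in turn. The RWA-SAM libraries, with the smaller share, also had more genes at a TPM of at least 1 than the RWA-SA1 libraries, and the part of that number in the share was not tested. In pools of whole bodies, fewer cells of a type and less RNA per cell cannot be told apart.

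**Figure D1:**
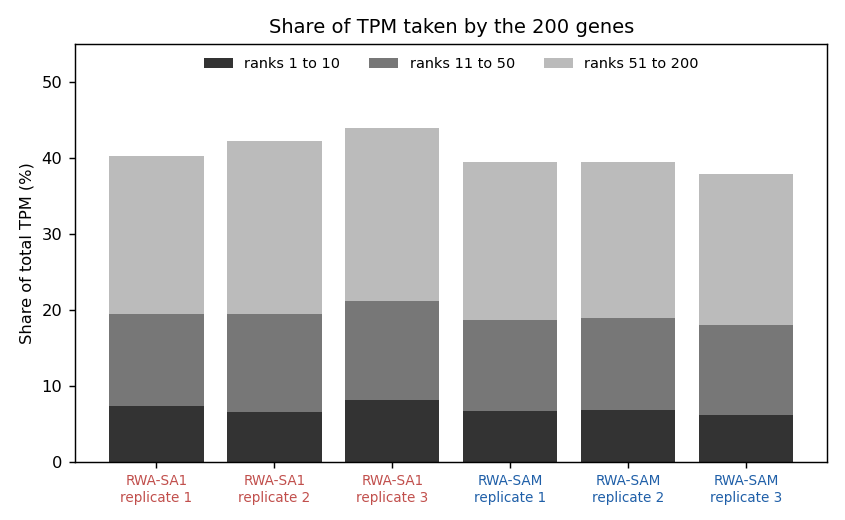
Share of the total TPM (%) taken by the 200 most abundant genes in each library, stacked by rank of mean TPM (ranks 1 to 10, 11 to 50 and 51 to 200). The RWA-SA1 bars reach 40.3% to 43.9%, the RWA-SAM bars 37.8% to 39.5%, and the block of ranks 1 to 10 overlaps between the biotypes.

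The first 10 members alone held 7.37%, 6.61% and 8.12% of the TPM in RWA-SA1 and 6.67%, 6.87% and 6.17% in RWA-SAM, and these values overlapped between the biotypes. The members at ranks 51 to 200 took 22.2% ± 1.14 (SD, n = 3) for RWA-SA1, against 20.4% ± 0.474 (SD, n = 3) for RWA-SAM. In the mean of the 6 libraries, 365 genes were needed to reach 50% of the TPM. On the scale of expected counts, which are not corrected for length, the members took 30.4% ± 1.33 (SD, n = 3) for RWA-SA1, against 28.7% ± 0.861 (SD, n = 3) for RWA-SAM, and the libraries of the biotypes overlapped. A list of 200 genes chosen anew within each library gave 42.5% ± 1.90 (SD, n = 3) of the TPM for RWA-SA1, against 39.2% ± 0.705 (SD, n = 3) for RWA-SAM. These own lists still held 180 to 192 of the members, so they are not independent of the rule. Their difference of 3.35 points had p = 0.1 in a two-sided exact permutation test. With so few libraries that test cannot give a lower p, so it cannot decide whether the biotypes differ. On the scale of expected counts the difference was 1.67 points (same permutation test, p = 0.3).

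Levels fell steeply over the first ranks and slowly afterwards. The mean TPM went from 9629 at rank 1 to 862 at rank 200, and the TPM of a member in a single library ranged from 330.1 to 14974. The depth behind these values was high, with a median of 40842 expected counts per member and library and a lowest value of 1265. At the limit of the list, TRINITY_DN3591_c0_g2 at rank 200 had TPM of 815.0, 797.7 and 778 in RWA-SA1 and 921, 907 and 953 in RWA-SAM. TRINITY_DN3338_c0_g2, the first gene outside, had 1157, 819 and 1262 in RWA-SA1 and 757, 777 and 371 in RWA-SAM, with a mean of 857. The means of these 2 neighbours thus differed by less than the libraries of either gene.

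**Figure D2:**
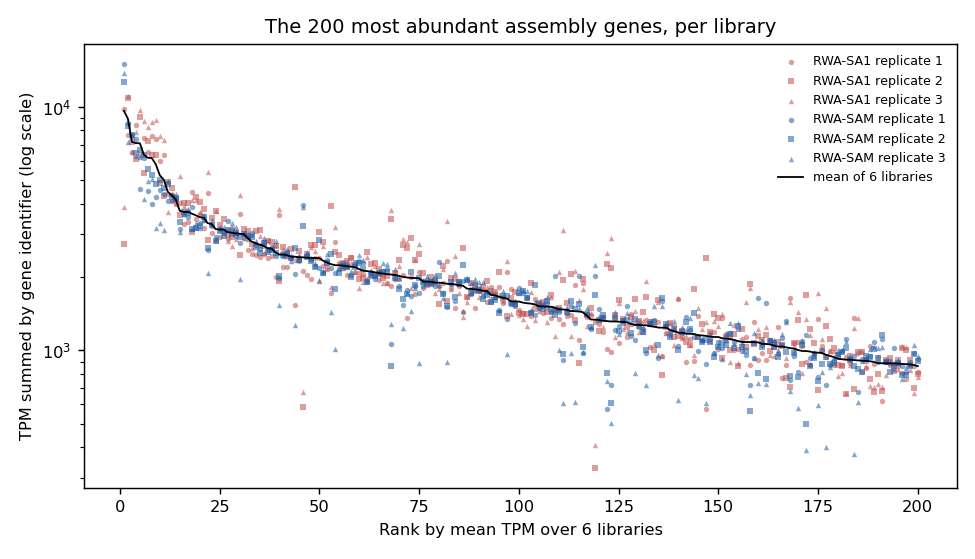
TPM summed by gene identifier (log scale) against rank by mean TPM for the 200 genes, with a point for each library and a line for the mean of 6 libraries. The line falls from 9629 to 862, and single libraries of a few genes lie far below it, down to 330.1.

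The most abundant gene was TRINITY_DN3_c0_g2, with 1 transcript of 1251 bases. It had TPM of 9765, 2743 and 3868 in RWA-SA1, and 14974, 12665 and 13762 in RWA-SAM. It held rank 1 in RWA-SA1 replicate 1 and in every RWA-SAM library, but ranks 41 and 19 in RWA-SA1 replicates 2 and 3, so its place at the head of the list does not hold in all libraries. The biotypes did not overlap, and RWA-SA1 replicate 1 lay between the other RWA-SA1 libraries and RWA-SAM. Its log2 fold change, RWA-SAM over RWA-SA1, was 1.2 with a standard error of 0.38 in edgeR's quasi-likelihood test of expected counts (adjusted p = 0.0744). Standard errors beside this test were derived from its F statistic and are approximate. Without RWA-SA1 replicate 1 the same test gave 1.79 with a standard error of 0.15 and an adjusted p of 0.000225. With any one of the other libraries left out it made no call, at adjusted p from 0.147 to 0.217.

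TRINITY_DN855_c1_g1 at rank 2 had TPM of 7676, 10850 and 11051 in RWA-SA1 and 8562, 8308 and 7201 in RWA-SAM, and these overlapped. It was the steadiest of the first 10 members in rank, between 1 and 3 in every library. TRINITY_DN1547_c0_g1 at rank 3 had 6526, 7156 and 6549 in RWA-SA1 and 7642, 7656 and 7565 in RWA-SAM. Its RWA-SAM libraries differed among themselves by little and all lay above RWA-SA1 on the TPM scale. TRINITY_DN2341_c0_g1 at rank 4 had 8442, 6121 and 7900 in RWA-SA1 and 7397, 6448 and 6283 in RWA-SAM. TRINITY_DN1164_c0_g1 at rank 5 had 6325, 9060 and 9700 in RWA-SA1 and 4615, 6633 and 6200 in RWA-SAM. TRINITY_DN77_c0_g1 at rank 6 had 7445, 5352 and 8708 in RWA-SA1 and 6143, 6340 and 4193 in RWA-SAM. In each of these last 3 genes the libraries of the biotypes overlapped.

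The genes at ranks 7, 8 and 9 were lower in RWA-SAM and passed the threshold, an adjusted p under 0.05, which 9.51% of all genes tested passed. TRINITY_DN767_c0_g1 had TPM of 6496, 7272 and 8278 in RWA-SA1 and 4508, 5574 and 4939 in RWA-SAM, and its log2 fold change was -0.75 with a standard error of 0.17 (edgeR quasi-likelihood test, adjusted p = 0.0440). TRINITY_DN1040_c0_g1 had 7601, 6363 and 8665 in RWA-SA1 and 4008, 5265 and 5069 in RWA-SAM, with a log2 fold change of -0.87 and a standard error of 0.17 (edgeR quasi-likelihood test, adjusted p = 0.0373). TRINITY_DN929_c0_g1 had 7362, 6322 and 8849 in RWA-SA1 and 4281, 4835 and 3176 in RWA-SAM, with a log2 fold change of -1.10 and a standard error of 0.23 (edgeR quasi-likelihood test, adjusted p = 0.0408). In all 3 genes the lowest RWA-SA1 library lay above the highest RWA-SAM library. TRINITY_DN48_c0_g1 at rank 10 had 6013, 4881 and 7615 in RWA-SA1 and 4537, 5020 and 3346 in RWA-SAM, which overlapped. Of the other members at ranks 2 to 10, none passed the threshold, with log2 fold changes of -0.49 for TRINITY_DN855_c1_g1, -0.045 for TRINITY_DN1547_c0_g1, -0.34 for TRINITY_DN2341_c0_g1, -0.76 for TRINITY_DN1164_c0_g1, -0.61 for TRINITY_DN77_c0_g1 and -0.68 for TRINITY_DN48_c0_g1 (edgeR quasi-likelihood test, adjusted p from 0.0730 to 0.794). Without RWA-SA1 replicate 1, 4 of these 6 genes passed in the same edgeR test, with -0.70 for TRINITY_DN855_c1_g1 (adjusted p = 0.00128), -0.98 for TRINITY_DN1164_c0_g1 (adjusted p = 0.00171), -0.68 for TRINITY_DN77_c0_g1 (adjusted p = 0.0388) and -0.77 for TRINITY_DN48_c0_g1 (adjusted p = 0.0311). In that fit 50.3% of all 17632 genes tested passed. With all libraries DESeq2 called TRINITY_DN1164_c0_g1 (adjusted p = 0.0147), TRINITY_DN77_c0_g1 (adjusted p = 0.0361) and TRINITY_DN48_c0_g1 (adjusted p = 0.0269), beside 24% of all genes. The sign for TRINITY_DN1547_c0_g1 depended on the scaling, since its log2 difference on the TPM scale was 0.18 (limma on log2(TPM + 1), adjusted p = 0.296). The 3 calls were lost when any library other than RWA-SA1 replicate 1 was left out, and their adjusted p then reached up to 0.167. With all libraries DESeq2 kept all 3. Limma on log2(TPM + 1) lost TRINITY_DN767_c0_g1 (adjusted p = 0.0524) and TRINITY_DN1040_c0_g1 (adjusted p = 0.0501). Without a filter on low counts edgeR lost TRINITY_DN767_c0_g1 (adjusted p = 0.0611). All 3 were lost with limma on log2(TPM + 0.1) (adjusted p from 0.0503 to 0.0552). They were also lost in edgeR with the replicate number as a block (adjusted p from 0.0719 to 0.0803).

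The isoform make-up of the members was richer than that of other genes, but more of it sat in 1 isoform. The members comprised 829 transcripts, of which 18 had no count in any library. The median was 3 isoforms per member, against 1 in the 16959 other genes with a mean TPM of at least 1. There was 1 isoform only in 43 members (21.5%), compared with 51.1% of the other genes, and 16 members (8.0%) had 10 or more, compared with 3.50%. Among the 157 members with several isoforms, the dominant one, that of highest TPM, carried a median of 96.9% of the gene's TPM, compared with 70.4% in the other genes. It carried at least 90% in 97 of them (61.8%, against 20.3%) and less than 50% in 17 (10.8%, against 19.0%). The other genes were less abundant by the rule, and the part of abundance in these differences was not tested.

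Dominant isoforms seldom changed between libraries. The same isoform was dominant in all 6 libraries in 145 of the 157 members (92.4%), compared with 61.2% of the other genes. Here too the other genes were less abundant, and the part of that was not tested. No member had 1 dominant isoform throughout RWA-SA1 and another throughout RWA-SAM, a pattern found in 133 of the other genes (1.60%). Of the 136 members with at least 10 percentage points between their first and second isoform in every library, 134 kept the same dominant one. The 12 members that changed included TRINITY_DN47_c1_g1, chosen after its values were seen. Its dominant isoform was i1 in RWA-SA1 replicate 1, at 71.2% of the gene's TPM, and in the RWA-SAM libraries, at 61.9%, 63.3% and 65.9%. In RWA-SA1 replicates 2 and 3 it was i2, at 55.6% and 57.2%. The level of this gene hardly moved, with TPM of 2899, 3166 and 2904 in RWA-SA1 and 3005, 3009 and 3033 in RWA-SAM. The split of the libraries was the same in TRINITY_DN100_c0_g1, TRINITY_DN7790_c0_g1 and TRINITY_DN406_c0_g1, where RWA-SA1 replicate 1 also shared its dominant isoform with the RWA-SAM libraries. These are 4 of the 12 members that changed, and the other 8 split the libraries in other ways.

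Isoforms shifted by degree in TRINITY_DN1547_c0_g1. Its isoform i3, of 2508 bases, made up 73.0%, 72.7% and 71.3% of the gene in RWA-SA1 and 58.7%, 60.4% and 63.0% in RWA-SAM. Isoform i2, of 2030 bases, made up 27.0%, 27.2% and 28.7% in RWA-SA1 and 41.3%, 39.6% and 37.0% in RWA-SAM. The 2 isoforms thus shared the gene differently in the biotypes, without overlap between libraries and with RWA-SA1 replicate 1 among the other RWA-SA1 libraries. The shift was noticed in the data and was not tested. By contrast, the dominant isoform of TRINITY_DN855_c1_g1, of 1685 bases, held between 93.7% and 94.7% in every library.

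The largest numbers of isoforms were 26 in TRINITY_DN300_c0_g1 and 23 in TRINITY_DN83_c0_g1. In TRINITY_DN300_c0_g1, isoform i12 of 1870 bases made up 61.0% to 66.0% of the gene in each library, and the rank of the gene stayed between 135 and 140. The log2 fold change was -0.29 (edgeR quasi-likelihood test, adjusted p = 0.0927), and -0.39 without RWA-SA1 replicate 1 (adjusted p = 0.00122), while DESeq2 with all libraries gave an adjusted p of 0.0478. On the TPM scale the difference was smaller, at -0.13 (limma on log2(TPM + 1), adjusted p = 0.244). TRINITY_DN83_c0_g1 was also the longest member, with a dominant isoform of 6629 bases, and 3 isoforms of that length, i25, i26 and i12, took 32.7%, 28.2% and 14.4% of the gene on average. Isoform i26 was dominant in RWA-SAM replicates 1 and 2 and i25 in the other libraries, at 31.7% to 34.7%, so no isoform held a majority. For this gene the log2 fold change was -0.40 (edgeR quasi-likelihood test, adjusted p = 0.0621), and -0.50 without RWA-SA1 replicate 1 (adjusted p = 0.00114), while DESeq2 with all libraries gave an adjusted p of 0.0116. It was -0.25 on the TPM scale (limma on log2(TPM + 1), adjusted p = 0.0788). RSEM divides reads that fit several isoforms among them by estimation, so the shares of near-identical isoforms are uncertain.

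Members were of middling length. The dominant isoform had a median of 1152 bases, with quartiles of 814 and 1723, compared with a median of 1263 and quartiles of 559 and 2232 in the other genes. Fewer members were short, with 13 (6.5%) under 500 bases against 21.8% of the other genes, and fewer were long, with 6 (3.0%) over 3000 bases against 13.1%. Length enters the TPM by definition, so these shares are not independent of how the members were chosen. Ranked instead by their mean share of expected counts, 144 of the 200 members remained among the first 200, and 5 fell beyond rank 1000.

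For the shortest members the level rests on the correction for length. The dominant isoform of TRINITY_DN68_c0_g1, at rank 110, had 209 bases, and RSEM gave it an effective length of 48.1 to 63.0 bases, depending on the library. Its TPM was 1344, 1496 and 2102 in RWA-SA1 and 1440, 1463 and 1008 in RWA-SAM, from 1511 to 4769 expected counts. The libraries overlapped, and by share of counts the gene stood at rank 3330. In the biotype test its log2 fold change was -0.66 with a standard error of 0.31 (edgeR quasi-likelihood test, adjusted p = 0.169), and -0.88 with a standard error of 0.27 without RWA-SA1 replicate 1 (adjusted p = 0.0290). Without RWA-SA1 replicate 3 it was -0.31 (adjusted p = 0.473). With transcripts under 300 bases left out and the rule applied again, 196 of the members were kept, and with the full in place of the effective length 193 were. The mean gap between length and effective length in transcripts of at least 2000 bases was 170 bases in RWA-SA1 replicate 1, 159 in replicate 2 and 153 in replicate 3, and 170, 167 and 181 in RWA-SAM, so RWA-SA1 replicate 1 resembled RWA-SAM in this measure too.

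**Figure D3:**
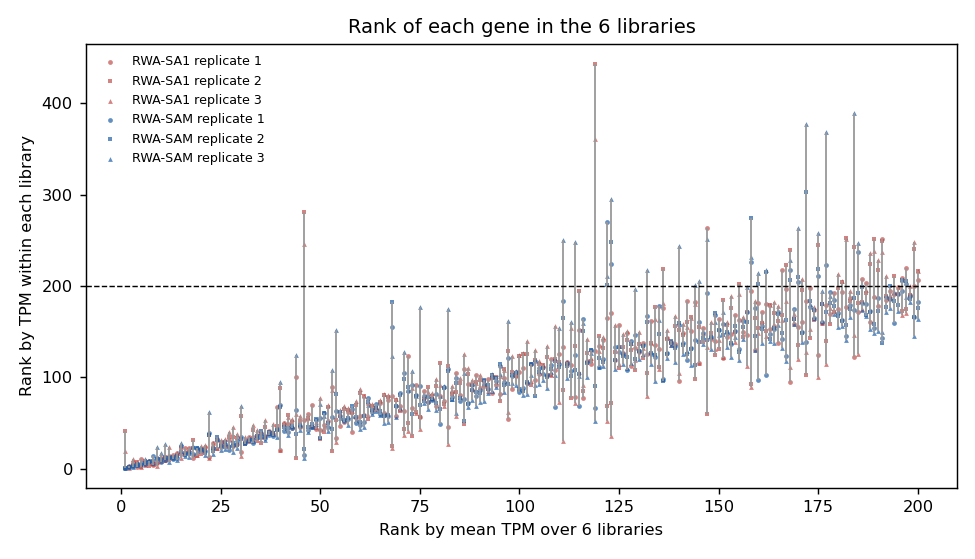
Rank by TPM within each library (points, joined by a line per gene) against rank by mean TPM for the 200 genes, with a dashed line at rank 200. Of the members, 159 stay at or above the dashed rank in every library, and the lowest rank reached is 443.

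Ranks were largely kept between libraries. Of the 200 members, 159 were among the first 200 in every library and 199 among the first 400. Among the members at ranks 1 to 150, 138 were in the first 200 of every library, and 6 of the first 10 were in the first 10 of every library. The first 200 genes of the single libraries held 180 to 192 members, and together they comprised 240 genes. The range of ranks over the 6 libraries had a median of 33.5 places, and this median was 12.5 for ranks 1 to 50, 28.5 for ranks 51 to 100, 47.5 for ranks 101 to 150 and 54.0 for ranks 151 to 200. The ratio of the highest to the lowest library had a median of 1.31 in the members and 1.88 in the other genes. It was under 1.2 in 63 members (31.5%, against 7.87% of the other genes) and at least 5 in 5 members. Members were chosen for high levels, and the part of level in the smaller ratios was not tested.

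The 3 members of widest rank range were picked by their ranks in these same 6 libraries, and a biotype difference widens that range. Their biotype tests are thus not independent of the choice. The widest range of ranks belonged to TRINITY_DN31033_c0_g2, a gene with 1 transcript of 900 bases. Its TPM was 1312, 330.1 and 410.3 in RWA-SA1 and 2026, 1695 and 2249 in RWA-SAM, and its rank went from 52 to 443. Its log2 fold change was 1.40 with a standard error of 0.44 (edgeR quasi-likelihood test, adjusted p = 0.0714), and 2.14 with a standard error of 0.13 without RWA-SA1 replicate 1 (adjusted p = 0.000118). TRINITY_DN3_c0_g1, which shares a cluster of the assembly with the gene at rank 1, had a similar order of libraries. Its TPM was 2121, 585 and 673 in RWA-SA1 and 3969, 3228 and 3882 in RWA-SAM, with ranks from 12 to 281. The log2 fold change was 1.58 with a standard error of 0.42 (edgeR quasi-likelihood test, adjusted p = 0.0551), and 2.29 with a standard error of 0.10 without RWA-SA1 replicate 1 (adjusted p = 9.3e-05). With any one of the other libraries left out, the same test called neither gene. Adjusted p was then 0.135 to 0.206 for TRINITY_DN31033_c0_g2 and 0.119 to 0.170 for TRINITY_DN3_c0_g1. TRINITY_DN3_c0_g2, TRINITY_DN3_c0_g1 and TRINITY_DN31033_c0_g2 were the 3 members whose mean TPM was at least 2 times as high in RWA-SAM, at 2.53, 3.28 and 2.91 times. In each of them the biotypes did not overlap, RWA-SA1 replicate 1 was at least 2 times as high as the other RWA-SA1 libraries, and edgeR's quasi-likelihood test made no call with all 6 libraries. With all 6 libraries DESeq2 called TRINITY_DN3_c0_g2 (adjusted p = 0.00798) and TRINITY_DN3_c0_g1 (adjusted p = 0.0260), and limma on log2(TPM + 1) called TRINITY_DN3_c0_g1 (adjusted p = 0.0406) and TRINITY_DN31033_c0_g2 (adjusted p = 0.0496).

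The other member of wide rank range, TRINITY_DN518_c0_g2, had TPM of 896, 1686 and 1340 in RWA-SA1 and 1153, 499 and 391 in RWA-SAM. Its ranks went from 102 to 377, and the libraries of the biotypes overlapped through RWA-SA1 replicate 1 and RWA-SAM replicate 1. For this gene the log2 fold change was -1.15 with a standard error of 0.45 (edgeR quasi-likelihood test, adjusted p = 0.113). It was -1.41 without RWA-SA1 replicate 1, where the gene passed (adjusted p = 0.0262), and -1.76 without RWA-SAM replicate 1, where it did not (adjusted p = 0.158). Single libraries also set the extremes unevenly over the list. RWA-SA1 replicate 2 was the highest library for 76 members, RWA-SAM replicate 3 for 46 and RWA-SA1 replicate 3 for 41, while RWA-SAM replicate 2 was the highest for 6.

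**Figure D4:**
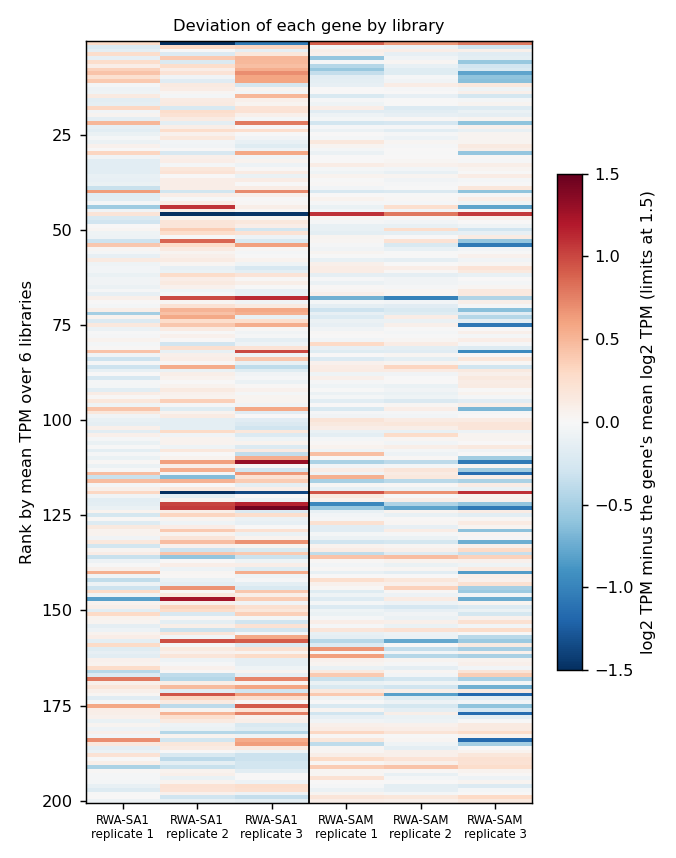
Deviation of each of the 200 genes (rows, by rank of mean TPM) in each library (columns) from the gene's mean log2 TPM, with the colour scale limited to 1.5 on either side. Most rows are pale, and in the strongest rows, such as those of ranks 1, 46 and 119, RWA-SA1 replicate 1 has a colour unlike that of RWA-SA1 replicates 2 and 3.

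Across the members, RWA-SA1 replicate 1 resembled RWA-SAM as much as its own biotype. The Pearson correlation of log2(TPM + 1) over the 200 members was 0.835 and 0.896 between RWA-SA1 replicate 1 and RWA-SA1 replicates 2 and 3, and 0.905, 0.922 and 0.838 with RWA-SAM replicates 1, 2 and 3. RWA-SA1 replicates 2 and 3 correlated at 0.919 with each other, and RWA-SAM libraries at 0.933 to 0.969. The lowest value was 0.667, between RWA-SA1 replicate 3 and RWA-SAM replicate 3. These correlations run across genes, which are not independent replicates, and the members span a narrow range of levels. Over the 16959 other genes the correlations of the same pairs of libraries were 0.932 to 0.989. RWA-SA1 replicate 1 was nearer to the mean of RWA-SAM than to the mean of RWA-SA1 replicates 2 and 3 in 103 members (51.5%), compared with 65.2% of the other genes.

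Of the members, 18 fell in 9 pairs that share the cluster number of their identifiers, and the remaining members each had a cluster of their own. In some pairs the ratio of the partners was nearly constant. TRINITY_DN312_c0_g1 had 3.51 to 3.58 times the TPM of TRINITY_DN312_c0_g4 in the 6 libraries, and TRINITY_DN5301_c0_g3 had 0.979 to 1.06 times that of TRINITY_DN5301_c0_g1. In others it moved, from 3.55 to 5.75 for TRINITY_DN3_c0_g2 over TRINITY_DN3_c0_g1, from 1.97 to 4.0 for TRINITY_DN77_c0_g1 over TRINITY_DN77_c0_g2, and from 2.76 to 10.6 for TRINITY_DN518_c0_g1 over TRINITY_DN518_c0_g2. The last pair had its highest ratios, 8.58 and 10.6, in RWA-SAM replicates 2 and 3, where TRINITY_DN518_c0_g2 was low while TRINITY_DN518_c0_g1 stayed between 4102 and 4658 TPM in all libraries. These pairs were chosen after their values were seen. RSEM would divide reads that fit both partners between them by estimation, so their levels are less certain.

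The biotypes were compared over all genes with expected counts and edgeR's quasi-likelihood test, and 16358 genes, including all 200 members, had enough counts to be tested. Among the members 20 (10%) passed an adjusted p under 0.05, 1 of them higher and 19 lower in RWA-SAM. Of all genes tested 1556 passed, which is 9.51%, with 3.95% higher and 5.56% lower in RWA-SAM. The share of members called was thus near that of all genes. The calls lay mostly in the lower part of the list, with 3 at ranks 1 to 50, 3 at ranks 51 to 100 and 14 at ranks 101 to 200. Their changes were mixed in size, with an absolute log2 fold change of at least 1 in 9 and under 0.5 in 5, and 2 of them had TPM values that overlapped between the biotypes. Another 8 members had an absolute log2 fold change of at least 1 and were not called. At an unadjusted p under 0.05 there were 83 members (41.5%) and 36.9% of all genes.

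The count of calls depended on single libraries. Without RWA-SA1 replicate 1, 142 members (71.0%) passed, 8 higher and 134 lower in RWA-SAM, compared with 50.3% of all 17632 genes then tested (25.6% higher and 24.8% lower). All 20 calls were among these 142. Without any one of the other libraries no member and no gene passed in edgeR's quasi-likelihood test. At an unadjusted p under 0.05 there were then 61 members without RWA-SA1 replicate 2, 53 without RWA-SA1 replicate 3, and 54, 64 and 49 without RWA-SAM replicates 1, 2 and 3. These were 30.5%, 26.5%, 27%, 32% and 24.5% of the members, beside 23.5%, 23.1%, 24.5%, 28.7% and 23.1% of all genes in the same fits. DESeq2 called 64 members with all libraries, 7 higher and 57 lower, beside 24% of all genes (10.8% higher and 13.2% lower). Without a filter on low counts 13 members (6.5%) passed, beside 0.967% of 59778 genes. The filter would keep only 16358 of these, so the 2 shares are not alike in depth. With the filter, limma on log2(TPM + 0.1) called 10 members (5%), beside 3.78% of genes. The 20 called members had the same direction in every one of these fits.

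**Figure D5:**
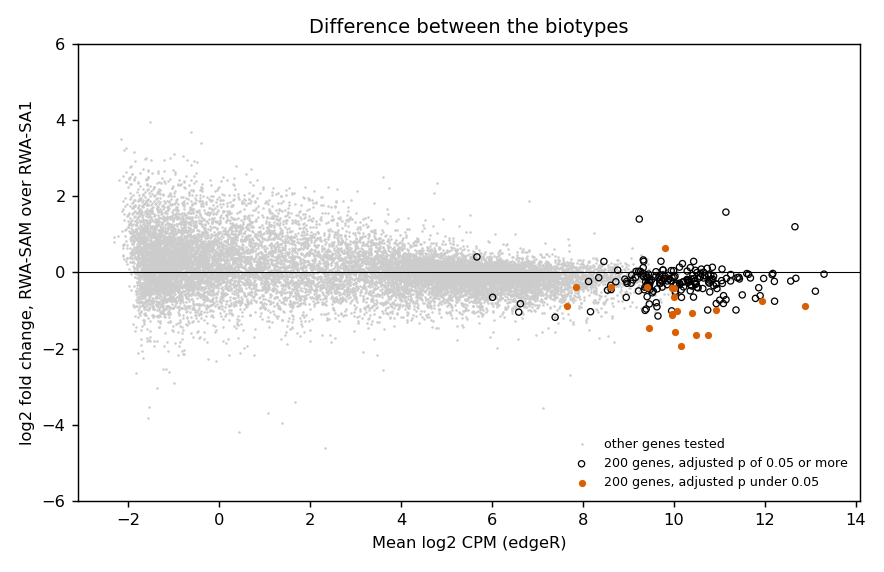
log2 fold change of RWA-SAM over RWA-SA1 against mean log2 CPM (edgeR) for 16358 genes, with the 200 most abundant genes as circles, filled where the adjusted p was under 0.05. Of the filled circles 1 lies above 0 and 19 below, and 170 of all 200 lie below 0 on this scaling.

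By their median the members lay lower in RWA-SAM than all genes did, under each scaling run, whereas the direction of single members depended on it. With TMM scaling, which aligns the bulk of genes between libraries, the median log2 fold change was -0.24 in the members and 0.014 in all genes, and 170 members were negative and 30 positive. On the TPM scale (limma on log2(TPM + 1)) the median was -0.036 in the members and 0.17 in all genes, with 116 members negative and 84 positive. There 19 members passed the threshold, 7 higher and 12 lower, beside 10.1% of all genes, with 7.77% higher and 2.34% lower. Scaled to library totals alone, a setting chosen after the data were seen, the medians were -0.040 and 0.21, and 21 members passed, beside 6.6% of all genes. Of these 7 were higher and 14 lower, beside 4.11% and 2.49% of all genes. The TMM factors were 1.04, 0.891 and 0.885 in RWA-SA1 and 1.06, 1.03 and 1.11 in RWA-SAM, with RWA-SA1 replicate 1 on the side of RWA-SAM.

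Judged by TPM alone, 79 members (39.5%) had libraries that did not overlap between the biotypes, the same share as the 39.5% of all genes tested. In the members these were split evenly, with 41 (20.5%) higher in RWA-SAM and 38 (19.0%) lower, whereas among all genes they were 29.4% higher and 10.1% lower. Most differences were small. The means of the biotypes were within 1.2 times of each other in 133 members, and they differed by at least 2 times in 8, of which 3 were higher in RWA-SAM and 5 in RWA-SA1. Among all genes tested, 13.2% differed by at least 2 times.

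The called member that rose was TRINITY_DN8183_c0_g1, at rank 136, with TPM of 945, 790.0 and 951 in RWA-SA1 and 1599, 1636 and 1515 in RWA-SAM. Here RWA-SA1 replicate 1 lay with its own biotype, and the biotypes were far apart. In the biotype test its log2 fold change was 0.63 with a standard error of 0.11 (edgeR quasi-likelihood test, adjusted p = 0.0348), and 0.60 without RWA-SA1 replicate 1. The strongest decreases were in TRINITY_DN3764_c0_g1 and TRINITY_DN3764_c0_g2, a pair of 1 cluster at ranks 123 and 122, each with 1 transcript. TRINITY_DN3764_c0_g1, of 1428 bases, had 987, 2186 and 2881 TPM in RWA-SA1 and 719.7, 610.3 and 504 in RWA-SAM, and fell by 1.94 on the log2 scale with a standard error of 0.41 (edgeR quasi-likelihood test, adjusted p = 0.0408). TRINITY_DN3764_c0_g2, of 2100 bases, had 1012, 2271 and 2507 TPM in RWA-SA1 and 572, 811 and 747 in RWA-SAM, and fell by 1.66 with a standard error of 0.37 (edgeR quasi-likelihood test, adjusted p = 0.0433). In both, RWA-SA1 replicate 1 had less than the other RWA-SA1 libraries but more than every RWA-SAM library. Whether the pair shares reads was not tested. Over the alternatives run, the adjusted p of these 3 genes reached up to 0.164, and no gene passed when a library other than RWA-SA1 replicate 1 was left out.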

How the data were processed

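RNA of whole aphids was sequenced in 3 libraries each of RWA-SA1 and RWA-SAM, grouped by the biotype and replicate number in the labels. The authors trimmed the reads with Trimmomatic 0.39 and deposited, per library and without pooling, RSEM expected counts, TPM values and isoform percent for 90781 transcripts of a de novo assembly. Which aligner was used was not given in the sources used here. Deposited FPKM values were not used. Levels were summed by gene identifier. After rounding to whole numbers the gene sums were filtered by filterByExpr, scaled by TMM and compared in R 4.3.3 by the two-sided quasi-likelihood test of edgeR 4.0.16, with Benjamini-Hochberg adjustment over all genes tested and a threshold of 0.05. Summaries and plots used Python 3.11.15, pandas 2.3.3, numpy 2.4.6, scipy 1.17.1 and matplotlib 3.10.9.

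The alternatives were RLE scaling, DESeq2 1.42.0, TMM factors from genes outside the members, no filter on low counts, limma 3.58.1 on log2(TPM + 1) and log2(TPM + 0.1), an offset for effective length, the replicate number as a block, each library left out in turn, other lengths, list sizes and averages and, chosen after the data were seen, library totals alone. The procedure was tested on simulated counts of 16358 genes, with changes set in genes drawn from all of these. It recovered 19.4% of 67 changes of 1.5 times, 50.7% of 67 changes of 2 times and 87.9% of 66 changes of 4 times. Most changes of 1.5 times were thus missed. Named genes were the 10 of highest mean TPM, those at ranks 200 and 201, the 3 of widest rank range, the 2 with most isoforms, the shortest and the longest, and the 2 of largest change in each direction among members past the threshold without overlap, of which only 1 rose. The members, lists and tests were chosen with earlier results of these data known. Libraries held 32294116 to 47619238 expected counts, and any 2 libraries differed over the members by a median of at least 0.047 on the log2 scale. The precision of the biotype test also rests on the spread between pools. The median standard error of the members was 0.12 with all libraries and 0.063 without RWA-SA1 replicate 1. The edgeR test does not report standard errors. They were computed as the absolute log2 fold change divided by the square root of the F statistic.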

Additional observations from a re-analysis of the deposited data

How the results depend on the processing

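All 20 members called between the biotypes had the same direction in every alternative fit. Calls among the members and among all genes numbered 64 (32%) and 3921 (24%) with DESeq2, 13 (6.5%) and 578 (0.967%) without a filter on low counts, and 10 (5%) and 618 (3.78%) with limma on log2(TPM + 0.1). With each library left out in turn they ranged from 0 to 142 (71%) and from 0 to 8876 (50.3%). RLE scaling, TMM factors from the other genes, limma on log2(TPM + 1), the effective length offset and library totals alone kept both counts within 1.5 times. The labels do not say whether libraries of the same replicate number belong together. Deviations of same-numbered libraries correlated at -0.064, 0.036 and -0.36 over the members, and at -0.016, 0.083 and -0.11 over expressed genes. With so few libraries per biotype, these values cannot settle whether same-numbered libraries share a batch. With the replicate number as a block, edgeR called 0 members and 0 genes. At an unadjusted p under 0.05 there were then 66 members (33%) and 5279 genes (32.3%), which are similar shares.

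The member share of RWA-SA1 and RWA-SAM was 30.4% and 28.7% of expected counts, 30.2% and 27.8% for 100 members, and 56.4% and 52.8% for 500 members. Over the libraries left out the means were 41.2% to 43.1% and 38.5% to 39.4%, with a difference of 2.26 to 4.16 points. That of each library's own first 200 was 2.49 to 4.37 points. Members in the first 200 of every library numbered 159 to 165, and members with 1 dominant isoform throughout 145 to 147.

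Of the named members, 2 changed sign, both near 0. The log2 fold change of TRINITY_DN3591_c0_g2, 0.026, was -0.011 without the filter, and -0.034 (without RWA-SA1 replicate 1) to 0.047 over the libraries left out. That of TRINITY_DN1547_c0_g1, -0.045, was 0.18 with limma at either pseudocount, 0.15 with library totals alone, and -0.14 to 0.021 (without RWA-SA1 replicate 2) over the libraries left out. The cause of these changes was not tested. With 3 pools per biotype and no gene names, neither rearing nor gene function could be assessed.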

Other observations

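Genes outside the members can be abundant in single libraries. Of the 240 genes among the first 200 of any library, 40 were not members, with 8, 17 and 13 of them in replicates 1 to 3 of RWA-SA1 and 9, 11 and 20 in those of RWA-SAM. The 2 with the best rank in a library were chosen after their values were seen. TRINITY_DN60_c0_g1, at rank 365 by mean TPM, had TPM of 1462, 85.7 and 78.1 in RWA-SA1 and 35.1, 783 and 35.2 in RWA-SAM, so RWA-SA1 replicate 1 and RWA-SAM replicate 2 stood far above the other libraries and its rank went from 107 to 4582. TRINITY_DN3028_c0_g1, at rank 255, had 336, 1638 and 143 in RWA-SA1 and 78.0, 503 and 1038 in RWA-SAM. In both genes the libraries of one biotype differed by over 5 times, in an order that does not follow the biotypes.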
